A study of Mus musculus with 12 samples.

Results

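The subunits of the oxidative phosphorylation complexes were followed across kidney cortex of 6 mice. Members were all clones on the array whose platform gene symbol begins with Nduf, Uqcr, Atp5 or Cox followed by a number from 4 to 8, or is one of the Sdh subunits, Cycs or Cyc1. This gave 88 clones of 63 gene symbols, of 15600 clones in all. Diabetic mice 1, 2 and 3 had received STZ, streptozotocin, which kills pancreatic beta cells and so removes insulin. Menopausal/diabetic mice 1, 2 and 3 had received VCD, an ovotoxic compound that depletes the small follicles of the ovary and models menopause, as well as STZ. All 6 animals were therefore diabetic, and strain and age are not given in the labels. Cortex RNA was taken 6 weeks after STZ, amplified, and cohybridised, an animal in each dye, on 12 two-colour arrays of spotted cDNA clones, each animal on 4 arrays, with 6 arrays pairing the groups.

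Oxidative phosphorylation makes most of the ATP of the renal cortex, whose proximal tubules are dense in mitochondria and spend that ATP on sodium transport. Complex I takes electrons from NADH and complex II from succinate. Complex III passes them to cytochrome c, complex IV, the cytochrome c oxidase, hands them to oxygen, and complex V, the ATP synthase, uses the proton gradient that complexes I, III and IV build. Except for complex II, each complex also holds subunits encoded in mitochondrial DNA, and none of those was among the named clones. All results here concern the nuclear-encoded subunits.

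The nuclear genes of these subunits share no single promoter element, but many are bound by NRF1, by ETS factors such as GABP, or by YY1. RefSeq promoter windows on GRCm38.p6, of 300 bases from 250 before the start, were at hand for 52 of the member genes. The letters GCATGCGC (NRF1, with GCGCATGC on the other strand) occurred in the windows of 9 genes (17.3%), against 3.05% of 27025 genes. CCGGAAG or CTTCCGG (ETS) occurred in 18 (34.6%, against 9.93%), and AAGATGGC or GCCATCTT (YY1) in 7 (13.5%, against 3.19%). A match of letters is a description and not a binding site. The 150 bases before the start are shown for the 3 complex IV genes with the largest differences at an unadjusted p under 0.05. They are also shown for Ndufs3 of complex I, whose difference had the other sign (0.32), though not with 1 loess curve per print block (-0.03). All 4 lie on the minus strand and read 5′ to 3′, with ETS letters in capitals. The stretches are chr13:86046796-86046945 for Cox7c, chr9:79759854-79760003 for Cox7a2, chr7:30626115-30626264 for Cox6b1 and chr2:90904722-90904871 for Ndufs3.
Cox7c: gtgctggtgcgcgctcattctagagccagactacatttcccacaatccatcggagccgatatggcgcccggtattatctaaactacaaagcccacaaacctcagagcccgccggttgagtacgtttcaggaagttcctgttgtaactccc
Cox7a2: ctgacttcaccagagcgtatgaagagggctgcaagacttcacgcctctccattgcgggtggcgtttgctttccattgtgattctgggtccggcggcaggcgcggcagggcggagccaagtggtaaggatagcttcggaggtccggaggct
Cox6b1: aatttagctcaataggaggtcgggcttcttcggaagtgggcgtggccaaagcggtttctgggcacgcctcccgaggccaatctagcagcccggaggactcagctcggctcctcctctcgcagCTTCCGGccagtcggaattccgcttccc
Ndufs3: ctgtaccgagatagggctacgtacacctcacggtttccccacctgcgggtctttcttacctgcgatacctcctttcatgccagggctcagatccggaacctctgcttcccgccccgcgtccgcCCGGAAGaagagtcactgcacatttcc
The Cox6b1 and Ndufs3 stretches each hold the ETS letters shortly before the start. Neither the Cox7c nor the Cox7a2 window holds any of these letters in full.

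The clones of these subunits gave strong signals. Their median brightness lay at percentile 94.7 of all clones, and 60 of 88 (68.2%) were detected on all 12 arrays in the Alexa Fluor 546 channel, against 16.3% of all clones. Brightness here tells how well a clone was measured and not how abundant its transcript is, since the spotted clones differ in length and DNA. The 4 dimmest, Ndufaf6, Sdhd, Atp5a1 clone 4 and Atp5g3 clone 2, were detected on no array and fell under the brightness limit, which left 84 clones of 61 genes. Where a gene had several clones they were numbered from the brightest. A further 2 clones carry several symbols, among them Cox5b and Sdhc, and were left out. Uqcrfs1, Cyc1, Cox5a, Cox4i2, Cox6a2, Cox7a1, Cox7b2, Cox8b, Cox8c and Atp5g2 were not analysed here.

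Some arrays and clones limit every result. Identifiers inside the scanner files match the titled animals for 11 of 12 arrays. The exception, titled diabetic 2 with diabetic 3, carries the same identifier for both dyes, which does not match its title. Leaving that array out does not move a group difference, because the difference rests on the 6 between-group arrays. Across clones, measured ratios correlated with ratios computed from the remaining arrays at -0.143 to 0.616, with 3 arrays below 0. The residual SD between arrays had a median of 0.294 for the members and 0.180 for all tested clones. The members were also brighter than most clones, and clones of like brightness were not compared. Clones of 3 print blocks at the slide's upper left corner stood apart, with 32.1% at an unadjusted p under 0.05 against 7.03% in the other blocks. Among the members, 9 clones lay in those blocks and 75 of the tested clones elsewhere. Diabetic animal 3 stood apart for tubule markers. Lrp2, the endocytic receptor of the proximal tubule, had levels of 0.18, 0.24 and -1.15 in diabetic animals 1 to 3, and Calb1, of the distal tubule, 0.20, -0.14 and -1.36. Of the 14 proximal tubule markers listed, 3 were on the array (Gatm, Lrp2 and Miox), 2 of them detected on all 12 arrays, and their median was -1.15 in diabetic 3 and 0.03 to 0.33 in the other 5 animals. The members' median in diabetic 3 was 0.03. In whole cortex, fewer cells of a type and less RNA per cell cannot be told apart. No marker of skeletal muscle or fat, the other mitochondria-rich sources considered, was on the array.

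With 1 loess curve per array, complex IV clones lay mostly lower in the menopausal/diabetic animals, and clones of the other complexes fell on both sides of 0. With 1 curve per print block, 13 of 15 complex IV and 20 of 25 complex I clones were lower. So were 7 of 9 in complex III, 17 of 26 in complex V, 1 of 4 in complex II and 61 of all 84 members. A level is the log2 level of an animal about the mean of all 6, and a difference is menopausal/diabetic minus diabetic, each with n = 3 animals a group. No member passed the threshold of limma's test after Benjamini-Hochberg adjustment over 11700 clones, where 0% of all clones passed. The lowest adjusted p among the members was 0.259. At an unadjusted p under 0.05 there were 16 member clones of 84 (19%), against 8.47% of all clones. Of these, 6 were higher in the menopausal/diabetic animals (7.14%, against 5.23%) and 10 lower (11.9%, against 3.24%). The levels of the groups did not overlap for 5 clones that were higher (5.95%, against 7.72%) and 11 that were lower (13.1%, against 6.62%). Among the brightest 25% of all clones, which held 75 of the members, 16 members (21.3%) had such a p against 15.8% of clones, and 10 (13.3%) were lower against 5.72%. The share of higher clones was thus near its background, while that of lower clones lay above it on each of these counts with 1 loess curve per array. Median centring in place of loess left no lower member under 0.05 (0%), where lower clones were 0.65% of all clones. Cox7c clone 1 was then at -0.33 (limma's unadjusted p 0.0785) and Cox7a2 at -0.25 (p 0.221). Counting both directions, 5 members (5.95%) had an unadjusted p under 0.05, against 4.84% of all clones, and all 5 were higher. With the re-matched deposited log2 ratios the shares were 8.33% of members and 9.04% of all clones. Higher clones were there 1.19% of members against 5.09% of all clones, and lower ones 7.14% against 3.96%. The members' share in both directions together thus lay above the background in some settings and not in others.

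The median difference was 0.00 for complex I (25 clones, 13 higher and 12 lower), -0.06 for 3 assembly factors, 0.04 for complex II (4 clones), 0.06 for complex III (9 clones, 6 higher and 3 lower) and 0.07 for the 2 Cycs clones. For complex IV it was -0.10 (15 clones, 2 higher and 13 lower), and for complex V -0.01 (26 clones, 11 higher and 15 lower). Over all 84 clones it was -0.02, and over all 11700 clones 0.00. Complex IV held 5 of the 10 lower clones at an unadjusted p under 0.05, and 6 of the 11 whose groups did not overlap. None of its clones lay in the upper left print blocks. On the 6 between-group arrays the complex IV median was -0.38, -0.22, -0.15 and -0.12 on 4 arrays and 0.01 and 0.21 on the other two, so it was not below 0 on every array.

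**Figure D1:**
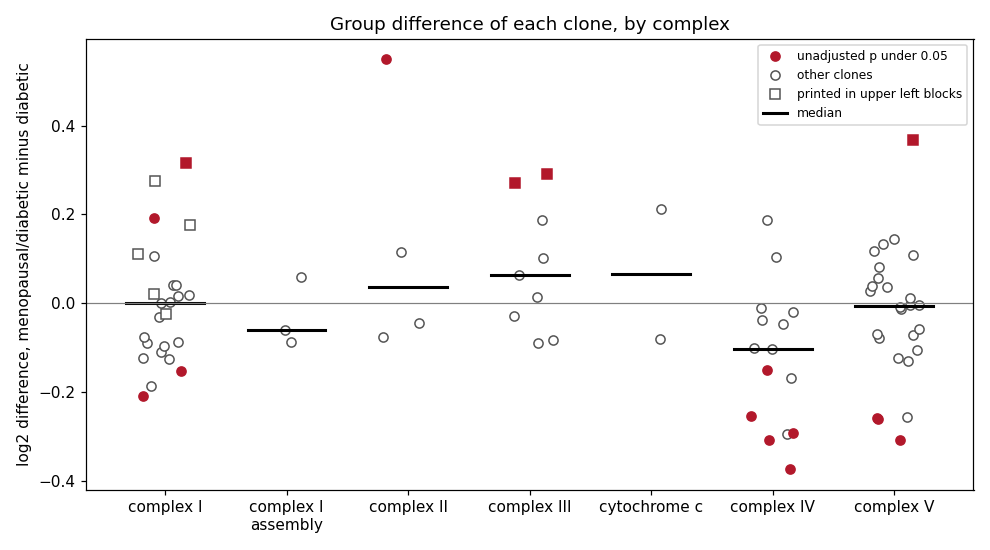
Log2 difference, menopausal/diabetic minus diabetic, of each of the 84 tested clones (y axis), grouped by complex (x axis); filled points have an unadjusted p under 0.05, squares lie in the 3 upper left print blocks and bars mark medians. With 1 loess curve per array, the 15 complex IV clones have a median of -0.10 with 13 below 0, while the 25 complex I clones have a median of 0.00.

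No clone of the catalytic core of complex IV was measured, so the core could not be compared with the nuclear-encoded subunits around it. Among these the largest differences at an unadjusted p under 0.05 were in Cox7c, Cox7a2 and Cox6b1. Cox7c, a single-span subunit of the oxidase, had 2 clones. Cox7c clone 1 had levels of 0.24, 0.20 and 0.12 in diabetic animals 1, 2 and 3, and of -0.17, -0.18 and -0.22 in the menopausal/diabetic animals. The groups did not overlap, and each diabetic animal lay above 0 and each menopausal/diabetic animal below it. The means were 0.19 ± 0.06 and -0.19 ± 0.03 (SD), a difference of -0.37 ± 0.05 (SE), or 1.30 times lower (unadjusted p 0.00018, limma's adjusted p 0.259). Cox7c clone 2 had 0.03, 0.12 and 0.29 against -0.22, -0.03 and -0.19, again without overlap, and a difference of -0.29 ± 0.09 (p 0.0123). The clones thus shared their direction, though on the between-group arrays each had 5 ratios below 0 and 1 above.

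Cox7a2, the isoform of subunit 7a found in most tissues, had levels of 0.13, 0.10 and 0.22 in the diabetic animals and -0.24, -0.17 and -0.06 in the menopausal/diabetic animals. Its groups did not overlap, and the ratio was below 0 on all 6 between-group arrays, from -0.42 to -0.16. The difference was -0.31 ± 0.06 (p 0.0022, limma's adjusted p 0.359). Cox6b1, which faces the intermembrane space, had 0.27, -0.06 and 0.17 against -0.22, -0.06 and -0.11. Diabetic animal 2 lay within the menopausal/diabetic range there, and the difference was -0.25 ± 0.09 (p 0.0312). Cox4i1, the largest nuclear-encoded subunit, had 4 clones with differences of -0.10, -0.15, -0.17 and -0.02. Clones 1, 2 and 3 of Cox4i1 had groups that did not overlap, and clone 2 alone had a p under 0.05 (0.033).

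The other complex IV clones gave smaller or more scattered differences, and whether isoforms or pseudogene copies also hybridised to these clones was not tested. Cox6a1, the isoform of most tissues, was at -0.10 ± 0.09. Cox6b2, known as the testis isoform, was at -0.30 ± 0.20, with diabetic animal 3 at 0.57 and menopausal/diabetic animal 2 at -0.39. Cox7a2l, which takes part in joining complexes III and IV, had clones at -0.04 and -0.01, and Cox6c was at -0.05. Cox7b at 0.10 ± 0.08 and Cox8a at 0.19 ± 0.11 were the members of complex IV above 0, with p of 0.228 and 0.145. Their groups overlapped, so neither differed beyond the spread between animals.

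**Figure D2:**
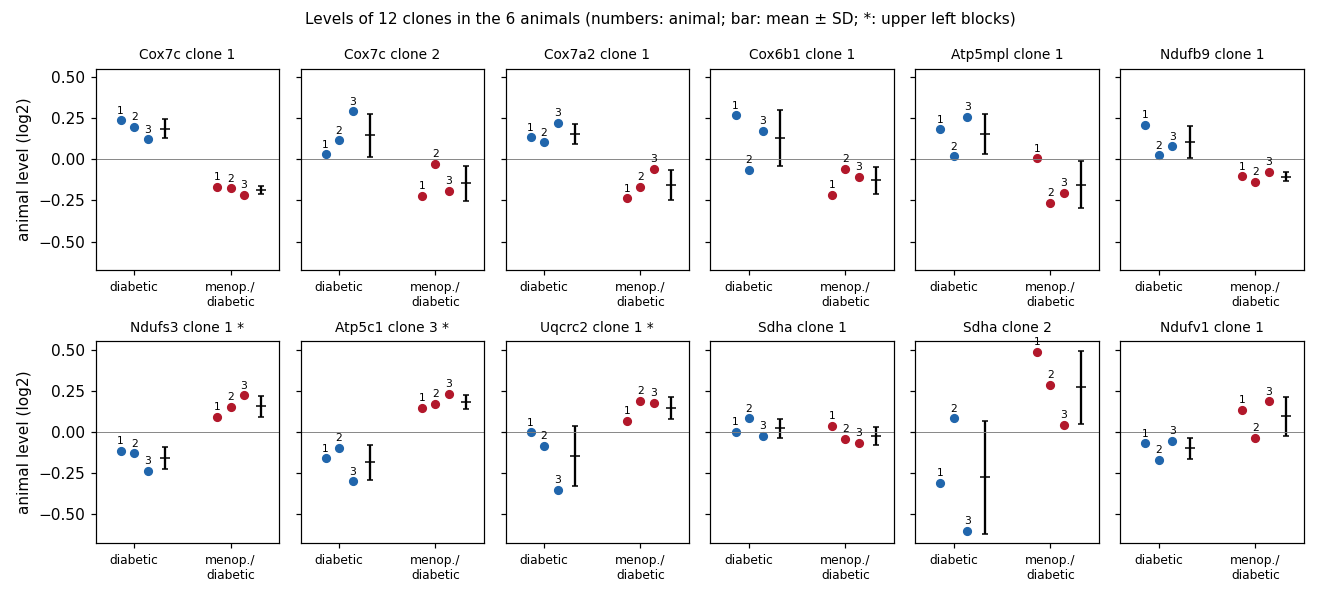
Log2 levels of 12 clones (y axis, about the mean of the 6 animals) in the diabetic and menopausal/diabetic animals, numbered as in the titles, with mean ± SD beside the points; an asterisk marks clones of the upper left print blocks. For Cox7c clone 1 and Cox7a2 the groups do not overlap, while Sdha clone 1 has overlapping groups and Sdha clone 2 spreads from -0.60 to 0.49.

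In complex I, the clones at an unadjusted p under 0.05 were 2 accessory subunits below 0 and 2 core subunits above it. Ndufb9, an accessory subunit of the membrane arm, had 0.21, 0.02 and 0.08 against -0.10, -0.13 and -0.08, and a difference of -0.21 ± 0.06 (p 0.0114). Ndufc1, another membrane arm subunit, had 0.07, 0.08 and 0.07 against -0.15, -0.05 and -0.03, and a difference of -0.15 ± 0.05 (p 0.0199). Neither clone had overlapping groups. Ndufb11 (-0.09) and Ndufs4 (-0.19, p 0.0568), an accessory subunit whose loss in mice gives a Leigh-like disease, also had groups that did not overlap.

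Among the core subunits, Ndufv1, which binds NADH, had -0.07, -0.17 and -0.05 against 0.14, -0.04 and 0.19, and a difference of 0.19 ± 0.07 (p 0.0339). Ndufs3, a subunit of the peripheral arm, had -0.11, -0.13 and -0.23 against 0.09, 0.16 and 0.22, and a difference of 0.32 ± 0.06 (p 0.0012). Ndufs3 lay in the upper left blocks, where a loess curve for each print block turned its difference to -0.03. Ndufs1, the largest nuclear-encoded core subunit, was at 0.11 ± 0.12, and Ndufv2, the partner of Ndufv1, at -0.09 ± 0.10. The clone of the pseudogene Ndufs5-ps, also in the upper left blocks, was at 0.28 ± 0.13 (p 0.074). The assembly factors Ndufaf1, Ndufaf3 and Ndufaf4, which help to build complex I and are not part of it, were at -0.06, -0.09 and 0.06, all with overlapping groups.

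Complex II, which is also an enzyme of the citric acid cycle, showed the widest disagreement between clones of a gene. Sdha, its flavoprotein, had a clone 2 with levels of -0.31, 0.09 and -0.60 in the diabetic animals and 0.49, 0.29 and 0.05 in the menopausal/diabetic animals. Its difference of 0.55 ± 0.19 (p 0.023) was the largest of all members, though diabetic animal 2 lay above menopausal/diabetic animal 3. Without diabetic animal 3, in which the tubule markers were lowest, it was 0.39, and it was 0.17 without background correction and 0.18 with separate channels. Sdha clone 1 had a difference of -0.05 ± 0.05. Both clones were detected on every array. Sdhb, the iron-sulfur subunit, was at -0.08 ± 0.06 and Sdhc, a membrane anchor, at 0.12 ± 0.12, both with overlapping groups.

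In complex III, the core protein Uqcrc2 was higher in both of its clones, which lay in the upper left blocks. Clone 1 had 0.00, -0.08 and -0.35 against 0.07, 0.19 and 0.18, and a difference of 0.29 ± 0.10 (p 0.0201). Clone 2 had a difference of 0.27 ± 0.08 (p 0.0108). Under block-wise loess curves both differences were -0.12. The other core protein, Uqcrc1, had clones at 0.19 ± 0.13 and -0.09 ± 0.07. The small subunits Uqcrb (0.10 and -0.03), Uqcrh (0.06 and 0.01) and Uqcr11 (-0.08) had overlapping groups. Cycs, the electron carrier between complexes III and IV, had clones at -0.08 ± 0.07 and 0.21 ± 0.10, again on opposite sides.

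In complex V, the 3 lower clones at an unadjusted p under 0.05 belonged to the stalk and the membrane part. Atp5mpl, a small proteolipid of the membrane part, had 0.18, 0.02 and 0.26 against 0.01, -0.27 and -0.20, and a difference of -0.31 ± 0.09 (p 0.0142). The groups did not overlap by a small margin, as diabetic 2 lay just above menopausal/diabetic 1. Atp5h, subunit d of the stalk, had 0.26, -0.06 and 0.20 against -0.23, 0.00 and -0.16 (difference -0.26 ± 0.10, p 0.04). Atp5o, the subunit that confers oligomycin sensitivity, had a clone 2 at -0.26 ± 0.09 (p 0.0218) and a clone 1 at 0.01 ± 0.07. As for Cox7a2, the ratio of Atp5o clone 2 was below 0 on all 6 between-group arrays, from -0.57 to -0.01. Atp5md, another small membrane subunit, was at -0.26 ± 0.12 (p 0.067), with menopausal/diabetic animal 2 at -0.39. In Cox6b1, Atp5h and Atp5o clone 2, diabetic animal 2 lay below diabetic animals 1 and 3, and it was within the menopausal/diabetic range.

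The catalytic head gave small differences. Atp5a1, the alpha subunit, had 3 tested clones at 0.13, 0.03 and -0.01, and Atp5b, the catalytic beta subunit, 3 at 0.08, -0.01 and 0.00, all with overlapping groups. Atp5c1, the gamma shaft, had clones at -0.08, 0.14 and 0.37. Its clone 3 had -0.16, -0.09 and -0.30 against 0.15, 0.17 and 0.23 (difference 0.37 ± 0.07, p 0.00093). With 1 curve per array the ratio of clone 3 was above 0 on all 6 between-group arrays, from 0.01 to 0.90. That clone lay in the upper left blocks and had -0.08 under block-wise curves. Subunit c of the membrane ring is encoded by several genes, of which Atp5g1 had clones at 0.04 and -0.06 and Atp5g3 a tested clone at 0.04. The remaining complex V clones ran from -0.13 (Atp5d) to 0.12 (Atp5j), each at a p above 0.05.

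The place on the slide went with the sign of the higher clones. Of the 9 members in the upper left blocks, 8 were higher, 4 of them at an unadjusted p under 0.05 (44.4%, against 32.1% of clones there), with a median of 0.27. Under block-wise loess curves all 9 lay below 0, from -0.18 to -0.01. In the other blocks 12 of 75 members (16%, against 7.03%) had such a p, 2 higher (Ndufv1 and Sdha clone 2) and 10 lower. Over all members, block-wise curves gave 20 clones at an unadjusted p under 0.05 (23.8%, against 7.77%), 4 higher (4.76%, against 4.21%) and 16 lower (19%, against 3.56%). Within the brightest 25% the lower ones were 16 of 75 (21.3%, against 5.77%). The complex medians then were -0.06 for complex I, 0.12 for complex II, -0.06 for complex III, -0.15 for complex IV and -0.07 for complex V. Of the 16 clones at that threshold with 1 curve per array, 10 were also under it with block-wise curves and had the same sign, and Cox7c and Cox7a2 were among them. Without background correction Cox7a2 was at -0.18 (unadjusted p 0.0023) and Cox7c clone 2 at -0.16 (p 0.0066), while Cox6b1 at -0.13 (p 0.108) missed the threshold. With separate channels Cox7c clone 2 was at -0.45 (unadjusted p 0.006). Cox7c clone 1 at -0.19 (p 0.16) and Cox7a2 at -0.20 (p 0.0516) missed the threshold there.

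**Figure D3:**
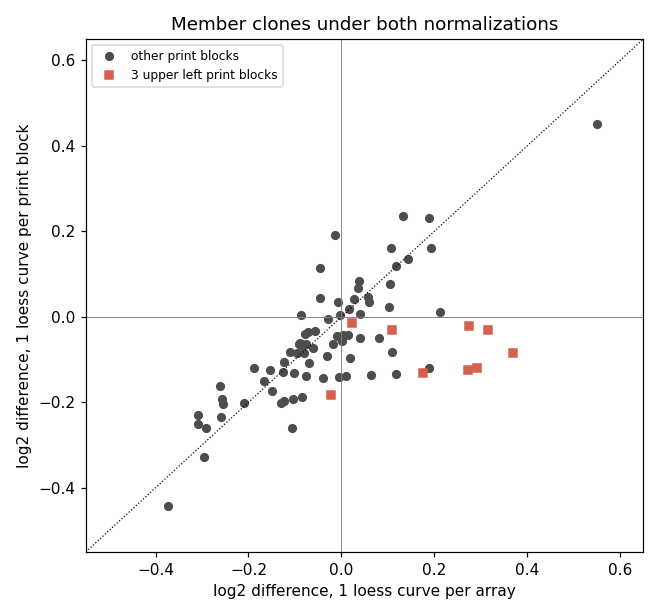
Log2 difference, menopausal/diabetic minus diabetic, of the 84 tested clones with 1 loess curve per array (x axis) against 1 curve per print block (y axis); squares are the 9 clones of the upper left blocks and the dotted line marks equal values. The 9 squares all lie below 0 on the y axis, with 8 of them above 0 on the x axis.

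Clones of a gene offered a repeat within the arrays, since they are separate spots of the same transcript in the same animals. Of 18 genes with several tested clones, 5 had all differences on the same side of 0 and 13 had clones on opposite sides. Cox4i1 (4 clones), Cox7c and Cox7a2l were lower throughout, and Uqcrc2 and Uqcrh higher. The range between clones of a gene had a median of 0.14 and reached 0.59 for Sdha. Many single-clone differences were smaller than that median, while the Cox7c clones at -0.37 and -0.29 lay 0.08 apart. Whether clones of a gene differ in sequence or in probe quality was not tested.

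**Figure D4:**
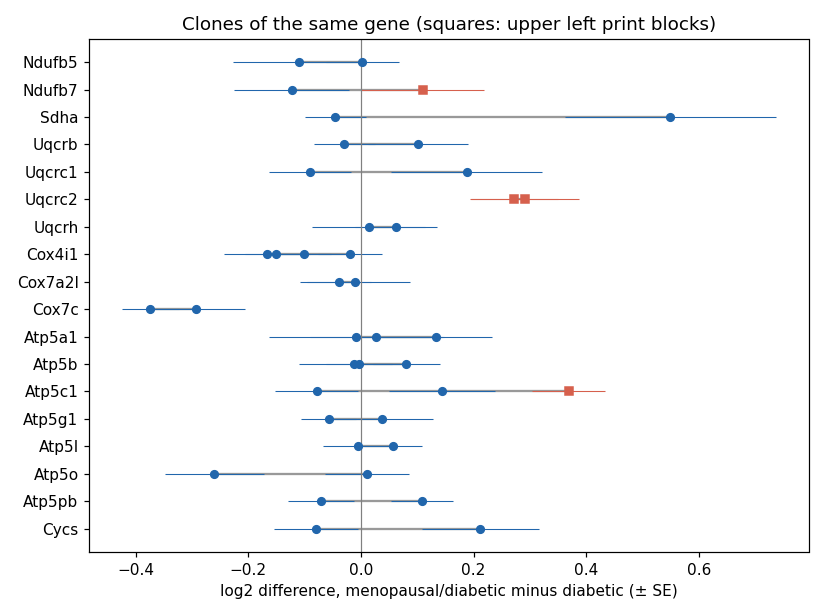
Log2 difference, menopausal/diabetic minus diabetic, with SE (x axis) of every tested clone of the 18 genes with several clones (y axis); squares lie in the upper left print blocks. Cox7c and Cox4i1 have all clones below 0, and Sdha has the widest range at 0.59.

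Few differences among animals of a group were detectable for these subunits. In the moderated F test on the 12 arrays, no member differed among the 3 diabetic animals at an adjusted p under 0.05, against 1.6% of all clones, and the lowest adjusted p was 0.212. At an unadjusted p under 0.05 there were 8 members (9.52%, against 12.9% of all clones), led by Atp5a1 clone 3 with 0.06, 0.30 and -0.34. Among the menopausal/diabetic animals no member and 0% of all clones passed, and 3 members (3.57%, against 5.16%) had an unadjusted p under 0.05. The lowest level of any member in diabetic 3 was -0.60, in Sdha clone 2, against -1.15 for Lrp2.

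Genes that work with the complexes were counted over lists rather than picked, with the brightest clone for each gene. Of 19 tested genes listed under the citric acid cycle and pyruvate entry, 11 lay above 0 and 8 below, and the median was 0.05. At an unadjusted p under 0.05 there were 4 of the 19, all higher, against 5.23% of all clones and 10.1% of the brightest 25%, to which 16 of the 19 belong. They were the malate dehydrogenases Mdh1, the cytosolic form (0.39 ± 0.07), and Mdh2, the mitochondrial form (0.26 ± 0.08), with Idh2 and Cs. Idh2, the mitochondrial NADP isocitrate dehydrogenase, was at 0.25 ± 0.10, and Cs, citrate synthase, at 0.39 ± 0.10 in the upper left blocks. With block-wise curves Mdh1, Mdh2, Idh2 and Cs were at 0.44, 0.21, 0.04 and 0.24. Of 12 assembly factors and electron carriers, 3 lay above 0 and 9 below, the median was -0.05, and 1 was under that threshold, Coq9 of ubiquinone synthesis (-0.15 ± 0.06). Of 6 genes of nucleotide, phosphate and ion exchange, 5 were higher, with a median of 0.24, and Ckmt1, a mitochondrial creatine kinase, was at 0.49 ± 0.19. Under block-wise curves the median of these 6 was 0.06, and Ckmt1 was at 0.37. The median of those 6 genes in diabetic animal 3 was -0.42, and 0.23, 0.01 and 0.14 in the menopausal/diabetic animals. Of 12 regulators of mitochondrial genes, among them Tfam (-0.13), Nrf1 (0.05) and Esrra (-0.01), 5 were higher and 7 lower and none had an unadjusted p under 0.05. None of these genes passed limma's test after adjustment over all clones.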

How the data were processed

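RNA of 6 animals was measured on 12 two-colour arrays of 31200 spots, with 15600 clones in 2 spots each. Per the file headers, the authors deposited scanner files that hold the mean intensity of each spot and its local background in each dye, not normalized. They also deposited a table of log2 ratios, with processing not given in the sources used here. None of its 12 columns matched the array of its own name best; each matched a different one (Spearman rho -0.946 to -0.608, across spots), so the scanner files were used. Per the labels' protocols, the RNA was amplified and coupled to Alexa Fluor 546 or 647.

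Background was removed by normexp (offset 50) and a loess curve fitted to each array, using limma 3.58.1 under R 4.3.3. Spots of a clone were averaged and the dimmest 25% of clones left out, leaving 11700. Spots were matched to probe numbers counted from the slide bottom; in that order 164 ribosomal protein clones had a mean brightness percentile of 87.2. All 88 members matched a RefSeq gene and none changed its symbol. Ratios were fitted by least squares to 6 animal levels and a dye term, and levels compared 3 against 3 by limma's two-sided moderated test (lmFit, eBayes), Benjamini-Hochberg adjusted over all clones. In this comparison of the groups, arrays of 1 animal were not counted as replicates. The F test among animals of a group takes its error from the arrays. An exact permutation of 3 against 3 animals cannot reach a p under 0.05, so none was run. Median net signal per array ran from 25.3 to 209 in Alexa Fluor 546 and from 14.6 to 107 in Alexa Fluor 647. The number of arrays limits the precision. The steps were tested on simulated data whose planted differences were larger than any member's and which held no print block effect. Recovery of differences of the members' size was not tested.

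Members and lists were chosen with earlier results of these data known. Named were clones with an unadjusted p under 0.05 or groups that did not overlap, the 2 largest differences of either sign in each complex, and core and isoform subunits. Same-numbered animals were checked for pairing: their deviations from the group means correlated at -0.051, -0.357 and -0.155 across clones, so the numbers were not taken to pair them.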

Additional observations from a re-analysis of the deposited data

How the results depend on the processing

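The count of members at an adjusted p under 0.05 was 0 under every alternative run, while counts at an unadjusted p under 0.05 moved. That count was 16 with the settings of the report. With an animal left out it ran from 11 to 18 (13.1% to 21.4% of members, against 5.91% to 12.7% of all clones). The higher clones then ran from 4 to 8 (4.76% to 9.52%, against 3.62% to 7.3%). The lower ones ran from 6 to 11 (7.14% to 13.1%, against 1.83% to 5.38%). With median centring the count of members was 5, none lower (0), which is 5.95% of members against 4.84% of all clones. Lower clones were then 0.65% of all clones. With the re-matched deposited log2 ratios the count was 7 (1 higher, 6 lower), 8.33% against 9.04%. The members' share in both directions together was thus near or below the background in both settings. With the deposited ratios higher clones were 1.19% against 5.09% and lower ones 7.14% against 3.96%. Of the 16 clones, 5 lower and 1 higher were also under 0.05 with those ratios. The count was 10 with the brightest clone of each gene (3 higher, 16.4% against 8.37%). As replicates, the 6 between-group arrays gave 2 (0 higher, 2 lower, 2.38% against 1.08%). Separate channels gave 8 (2 higher, 6 lower, 9.52% against 4.21%). Scaling between arrays gave 10 higher clones (11.9%, against 6.63%), and 1 loess curve per print block gave 16 lower ones (19%, against 3.56%). With the animal number as a replicate block the count was 13 (15.5%, against 6.97%), with 6 higher and 7 lower. With the 12 arrays as replicates it was also 13 (15.5%, against 7.07%), with 4 higher and 9 lower. Of the 16 clones 7 stayed under 0.05 whichever animal was left out: Cox7c clones 1 and 2, Cox7a2, Ndufb9, Ndufs3, Uqcrc2 clone 2 and Atp5c1 clone 3. Atp5mpl missed it without menopausal/diabetic 2 (-0.25), Ndufc1 without diabetic 2 (-0.15) or menopausal/diabetic 1 (-0.12), and Uqcrc2 clone 1 without menopausal/diabetic 2 (0.27) or 3 (0.27). Ndufv1 (0.15 to 0.26) and Cox4i1 clone 2 (-0.19 to -0.12) missed it without diabetic 1 or 2 or menopausal/diabetic 1 or 3. Cox6b1 (-0.35 to -0.18), Atp5h (-0.36 to -0.20) and Atp5o clone 2 (-0.34 to -0.21) missed it without diabetic 1 or 3 or menopausal/diabetic 1 or 3, and Sdha clone 2 (0.39 to 0.73) without diabetic 1 or 3 or menopausal/diabetic 1 or 2.

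With an animal left out, the median ran from -0.0284 to 0.00969 for complex I, -0.0209 to 0.0983 for complex II, 0.0362 to 0.112 for complex III, 0.0230 to 0.119 for Cycs, -0.138 to -0.0831 for complex IV, -0.0454 to 0.00576 for complex V and -0.0454 to -0.0141 for all members. With 1 curve per print block the medians were -0.0616 for complex I, -0.0627 for complex III, -0.0371 for Cycs, -0.151 for complex IV, -0.0657 for complex V and -0.0694 for all members, and 1 member then differed among the diabetic animals. Median centring gave 0.0522 for complex I, 0.113 for complex III and 0.0319 for all members, and scaling between arrays 0.0486 for complex I, 0.164 for Cycs and 0.0140 for all members. No background correction gave 0.0013 for complex III and -0.0544 for complex IV. The deposited ratios gave -0.0752 for complex I, -0.0203 for complex III, -0.162 for Cycs, -0.202 for complex IV, -0.0968 for complex V and -0.0842 for all members, and separate channels -0.0514, -0.169, -0.115 and -0.0800 for complexes I, IV and V and all members. Another setting left out 2 of the 4 arrays of menopausal/diabetic 1, those titled with diabetic 2 and with menopausal/diabetic 3. The other arrays predicted the ratios of these 2 at correlations of 0.0358 and -0.0186. Complex I was then at -0.0554, Cycs at 0.0891 and all members at -0.0529. In a separate setting, with the brightest clone of each gene and every array kept, the brighter Cycs clone alone was at -0.0801. The complex IV median stayed below 0 in each of these settings.

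Among the 16 clones at an unadjusted p under 0.05 the sign turned for 4, all in the upper left print blocks; among all 84 tested members block-wise curves turned it for 25, of which 8 lay in those blocks. With block-wise curves Ndufs3 clone 1 was at -0.0308, Atp5c1 clone 3 at -0.0837, Uqcrc2 clone 1 at -0.120 and Uqcrc2 clone 2 at -0.124. With the deposited ratios Atp5c1 clone 3 was at -0.125 and Uqcrc2 clone 2 at -0.0681. The cause was not tested for any of these changes. The 4 members detected on no array were not tested, and the number of arrays limits the precision of the others.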
